A study of Mus musculus with 12 samples.

Results

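A set of 94 genes was described whose signal was higher after OHT treatment in mouse ESCs that had no Ring1B construct or a Ring1B mutant lacking E3 ubiquitin ligase activity, and was raised by less than a set limit, or lowered, in ESCs that carried WT Ring1B. The genes were chosen on the array values themselves. After quantile normalisation, the log2 signal after OHT minus the log2 signal before OHT (the OHT change) had to be at least 1 in the line with an empty construct (mock), at least 0.8 in each of 3 mutant lines and below 0.4 in both WT lines. Of 13662 genes measured, 105 met these 3 expression conditions. A further condition left out symbols that begin with Hox, Zic, Pax, Tbx, Irx, Lhx, Fox, Sox, Wnt, Col or Kcn, which took away 11 (Hoxa9, Hoxd8, Hoxd13, Irx3, Irx4, Irx5, Zic1, Tbx15, Tbx18, Foxl2os and Kcna1). The 94 genes are therefore E3-dependent by the rule that chose them, and their OHT changes are given below as a description, with no test.

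All of the cells, controls included, were ESCs of the genotype Ring1A-/-; Ring1B fl/fl; Rosa26::CreERT2. OHT (4-hydroxytamoxifen) activates the CreERT2 recombinase, which deletes Ring1B, so that Ring1B is afterwards supplied only by a stably transfected construct. There were 6 lines with 2 arrays each, 1 without OHT (OHT-) and 1 on day 2 of OHT (OHT+, 800 nM for 24 h). The lines were 1 mock transfectant, 2 lines with WT Ring1B (#1 and #3), 2 lines with Ring1B (I53S) (#1 and #4) and 1 line with Ring1B (I53A) (#1). I53S and I53A replace an isoleucine on the surface by which Ring1B binds its E2 enzyme, and the 3 lines that carry them are called the mutant lines. The constructs are driven by a strong ubiquitous promoter rather than by the gene's own. The paper reports that Ring1B protein from the constructs was about as abundant as endogenous Ring1B. Each line is a separate stable transfectant selected with puromycin, and the ESCs can be kept on fibroblast feeders. A p-value therefore measures the spread between such lines, and the mock and I53A groups hold 1 line each. The mock line adds nothing to that spread, so p-values of its change assume that it varies as the WT and mutant lines do.

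Ring1B is the catalytic subunit of Polycomb repressive complex 1 (PRC1). With an E2 enzyme it attaches a single ubiquitin to histone H2A, the mark called H2AK119u1, and PRC1 also compacts chromatin by means that do not need this reaction. In ESCs, PRC1 keeps many genes for development and differentiation silent, mostly at CpG-rich promoters, and a variant of the complex that holds E2F6, MGA and L3MBTL2 keeps germ cell genes silent. MGA binds DNA together with MAX, and this pair recognises the palindrome CACGTG, an E-box.

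The promoters of 6 of the genes are shown because the germ cell genes among the 94 often carried this palindrome. Each is the 250 bases before the transcription start in RefSeq on GRCm38.p6, written 5′ to 3′ on the strand of the gene, with CACGTG in capitals and also TCCCGC, the core of an E2F site, or its reverse complement GCGGGA. They lie at chr13:112652311-112652560 (- strand) for Ddx4, chr6:49395289-49395538 (+ strand) for Stk31, chr3:40708621-40708870 (+ strand) for Slc25a31, chr6:7554811-7555060 (+ strand) for Tac1, chr3:121263341-121263590 (- strand) for Tlcd4 and chr2:178407659-178407908 (- strand) for Sycp2. Ddx4 (a germ cell RNA helicase), Stk31 (a Tudor domain protein of germ cells) and Slc25a31 (the ADP/ATP carrier of male germ cell mitochondria) are germ cell genes with a match. Tac1 (the precursor of substance P) and Tlcd4 are genes of other classes with a match, and Sycp2 (a protein of the meiotic chromosome axis) is a germ cell gene without one.
Ddx4: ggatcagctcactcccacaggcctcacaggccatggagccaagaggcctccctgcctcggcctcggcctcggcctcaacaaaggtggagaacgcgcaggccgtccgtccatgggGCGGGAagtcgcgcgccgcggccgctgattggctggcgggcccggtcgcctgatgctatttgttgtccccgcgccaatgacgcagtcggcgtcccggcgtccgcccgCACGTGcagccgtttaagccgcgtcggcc
Stk31: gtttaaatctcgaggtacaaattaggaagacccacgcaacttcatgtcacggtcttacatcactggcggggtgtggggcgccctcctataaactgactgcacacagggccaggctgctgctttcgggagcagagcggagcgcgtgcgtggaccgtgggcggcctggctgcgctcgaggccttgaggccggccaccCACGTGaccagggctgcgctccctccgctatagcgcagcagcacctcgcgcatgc
Slc25a31: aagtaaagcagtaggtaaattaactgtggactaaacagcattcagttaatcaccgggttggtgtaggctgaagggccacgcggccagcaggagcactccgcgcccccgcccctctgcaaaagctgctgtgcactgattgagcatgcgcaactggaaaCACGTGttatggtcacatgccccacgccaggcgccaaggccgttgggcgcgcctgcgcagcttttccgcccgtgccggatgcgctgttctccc
Tac1: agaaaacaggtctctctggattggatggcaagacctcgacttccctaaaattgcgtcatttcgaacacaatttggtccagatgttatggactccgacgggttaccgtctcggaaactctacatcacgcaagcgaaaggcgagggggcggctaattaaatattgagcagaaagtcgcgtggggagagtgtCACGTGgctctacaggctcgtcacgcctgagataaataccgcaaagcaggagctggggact
Tlcd4: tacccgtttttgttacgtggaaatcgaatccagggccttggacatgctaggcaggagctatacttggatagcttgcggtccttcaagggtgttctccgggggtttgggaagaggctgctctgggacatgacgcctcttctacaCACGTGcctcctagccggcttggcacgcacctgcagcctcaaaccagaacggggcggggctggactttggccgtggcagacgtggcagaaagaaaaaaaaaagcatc
Sycp2: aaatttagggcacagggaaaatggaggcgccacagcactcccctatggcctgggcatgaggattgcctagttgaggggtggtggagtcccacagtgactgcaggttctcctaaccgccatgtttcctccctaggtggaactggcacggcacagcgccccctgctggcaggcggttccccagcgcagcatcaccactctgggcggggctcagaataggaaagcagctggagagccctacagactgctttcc

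In these windows the palindrome begins 29 bases before the start in Ddx4, 55 in Stk31, 61 in Tac1, 93 in Slc25a31 and 107 in Tlcd4. Of the 6 windows only that of Ddx4 also holds the E2F letters, on the reverse strand. The Ddx4 window has 31 CpG dinucleotides in 250 bases and that of Sycp2 has 7. A match in letters is a description of the sequence, and binding was not measured here.

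In mock ESCs the 94 genes had a median OHT change of 1.51, from 1.01 for Figla (an oocyte transcription factor) to 2.68 for Ddx4. In the mutant lines the median was 1.44 in I53S #1, 1.33 in I53S #4 and 1.33 in I53A, and the highest values were 2.78 for Fut4, 3.33 for Tac1 and 2.74 for Bhmt2. In the WT lines the median was 0.13 in WT #1 and 0.18 in WT #3, and the lowest values were -1.17 for Shox2 and -0.64 for Sgpp2. The median level of the genes was much the same in all 6 lines before OHT, from 5.31 to 5.59, and afterwards it was between 6.82 and 6.88 in the mock and mutant lines and 5.73 and 5.72 with WT Ring1B. These arrays measured whole cultures, in which more RNA per cell and more cells that express a gene cannot be told apart.

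**Figure D1:**
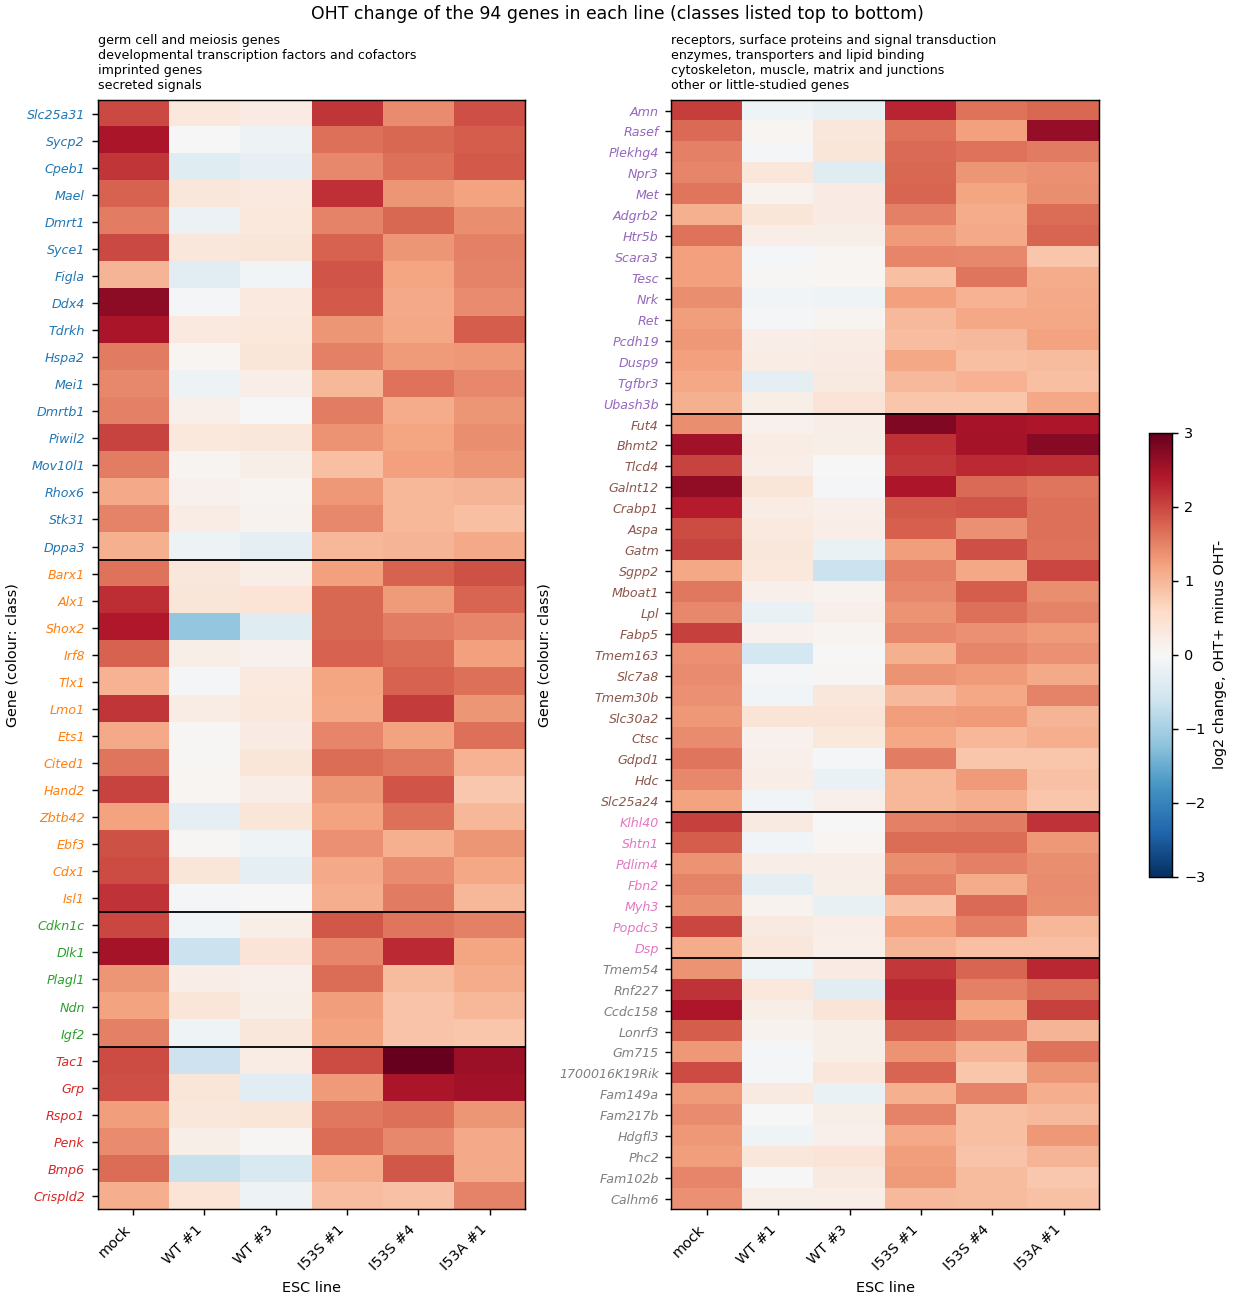
OHT change (log2, OHT+ minus OHT-) of each of the 94 genes in each of the 6 ESC lines, 1 pair of arrays per line, with genes grouped by class (colour of the name, black lines between classes) and ordered within a class by the mean of the mutant lines. The mock and mutant columns are red for every gene and the WT columns are pale, as the rule requires, while Shox2, Tac1, Dlk1, Bmp6 and Sgpp2 have a WT line below 0 by more than 0.6.

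The rule used these contrasts, so the shares passing a test over all genes are printed only as the background. In the fit over all genes (limma with the line as a block, Benjamini-Hochberg adjusted p under 0.05), 1043 genes or 7.63% were higher after OHT in the mutant lines, among them all 94, and 427 or 3.13% were lower. In the mock line 2.73% of genes were called higher with 77 of the 94 among them, and 1.11% lower. In the WT lines no gene was called, 1084 genes or 7.93% had an unadjusted p under 0.05, and 9 of the 94 were among those. A change larger in the mutant than in the WT lines was called for 22 genes or 0.161%, of which 10 belong to the 94, and a smaller one for 0.0146%. A rise of at least 1 in mock ESCs was met by 4.55% of all genes, and a rise of at least 0.8 by 6.34% in I53S #1, 5.23% in I53S #4 and 5.97% in I53A. Below 0.4 were 91% of all genes in WT #1 and 91.8% in WT #3.

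A threshold divides genes that hardly differ. Just inside the limits were Alx1, with a change of 0.399 in WT #3, Crispld2, with 0.399 in WT #1, and Hand2, with 0.803 in I53A. Just outside were Traf5, with 0.796 in I53S #4, Prkg2, with 0.411 in WT #3, and Tex11, a meiosis gene with 0.414 in WT #3. The germ cell gene Tex11 changed by 2.27 in mock ESCs and by 2.12, 1.21 and 1.28 in I53S #1, I53S #4 and I53A, which places it with the germ cell genes described next in every line but WT #3.

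Germ cell and meiosis genes formed a class of 17 of the 94. The classes were assigned by known function once the membership was known. This class had a median change of 1.57 in mock ESCs, 1.44 in the mutant lines and 0.13 with WT Ring1B, and it holds genes of 3 kinds. The first acts in the piRNA pathway, which silences transposons in the germ line, and comprises Ddx4, Mael, Mov10l1, Piwil2, Tdrkh and the related Tudor protein Stk31. The second builds or prepares meiotic chromosomes (Sycp2, Syce1 and Mei1, with Hspa2 as a chaperone of meiotic cells). The third consists of regulators and other germ cell proteins (Cpeb1, Dmrt1, Dmrtb1, Figla, Rhox6, Dppa3 and Slc25a31).

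Slc25a31 had the largest mean change of the class in the mutant lines, 1.84 ± 0.38 (SD, n = 3 lines). Its log2 signal went from 6.31 to 8.28 in mock ESCs, from 6.44 to 8.59 in I53S #1, from 7.61 to 9.03 in I53S #4 and from 6.69 to 8.63 in I53A. In the WT lines it went from 5.77 to 6.10 and from 7.15 to 7.40, so that the values after OHT separate the WT lines from the other 4. The starting levels, in contrast, overlapped.

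Sycp2 changed by nearly the same amount in all 3 mutant lines, 1.66, 1.73 and 1.81. Its signal went from 3.54 to 5.21 in I53S #1, from 4.39 to 6.12 in I53S #4, from 3.83 to 5.64 in I53A and from 3.65 to 6.09 in mock ESCs, against 3.42 to 3.42 in WT #1 and 4.20 to 4.04 in WT #3. The lowest OHT+ value outside the WT lines lies above the highest WT value. Sycp2 exceeded the filter of 5 on dim probe sets only after OHT in the mock and mutant lines. Its separation from the WT lines is therefore not independent of the choice of genes. Among others, Tac1, Fut4, Bhmt2, Tlcd4, Grp, Rasef and Alx1 also had signals above 5 only after OHT in mock or mutant lines, and the same limit applies to them.

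Ddx4 had the largest change of the 94 genes in mock ESCs, 2.68, a 6.39-fold difference. Its mean change in the mutant lines was 1.47 ± 0.35 (SD, n = 3 lines). The mock line started lowest, at 7.59, and ended at 10.27. The mutant lines started at 7.99, 8.98 and 8.77 and ended at 9.83, 10.12 and 10.20, while the WT lines went from 8.18 to 8.15 and from 8.58 to 8.88. The 4 lines without a WT construct thus ended within a narrow span, and the larger mock change goes with its lower start. Tdrkh, a Tudor protein needed to trim piRNA precursors, had the same form, from 5.56 to 8.01 in mock ESCs and from 6.53, 6.84 and 6.61 to 7.87, 8.01 and 8.43 in the mutant lines, with WT values of 6.39 to 6.69 and 6.55 to 6.86.

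Dppa3 (Stella), a maternal factor of oocytes and early germ cells that ESCs also express, had a high signal before OHT in every line. It went from 10.20 to 11.28 in mock ESCs, from 9.75 to 10.74, 8.85 to 9.87 and 9.21 to 10.36 in the mutant lines, and down from 10.11 to 9.96 and from 9.70 to 9.40 with WT Ring1B. The groups overlap at both times: I53S #4 after OHT was still below WT #1. Only the change within a line separates them.

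Developmental transcription factors and cofactors made up 13 of the 94 after the prefixes had been left out. They comprise the homeobox genes Alx1 and Barx1 of the face and foregut, Shox2 of limb and sinus node, Tlx1 of the spleen, Isl1 of heart, motor neuron and pancreas progenitors and the posterior gene Cdx1. Beside these stand the bHLH factor Hand2 of heart and limb, Ebf3, Ets1, the myeloid factor Irf8, Zbtb42, and the cofactors Lmo1 and Cited1. The class had the highest median in mock ESCs of the 8 classes, 1.92, against 1.44 in the mutant lines and 0.13 with WT Ring1B.

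Barx1 had the largest mean change of the class in the mutant lines, from 5.37 to 6.61, 5.18 to 6.93 and 4.96 to 6.87, with 4.80 to 6.44 in mock ESCs and 5.19 to 5.54 and 4.91 to 5.11 with WT Ring1B. Its mock change of 1.64 was close to the mean of the mutant lines, 1.63. Alx1 went from 3.15 to 5.36 in mock ESCs and reached 4.96, 4.87 and 5.08 in the mutant lines from 3.24, 3.59 and 3.34. In the WT lines it went from 3.28 to 3.65 and from 3.48 to 3.88, which is all but at the limit of the rule. With no filter on dim probe sets the mean mutant change of Alx1 was 0.85 instead of 1.58.

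Shox2 moved furthest down in a WT line. It went from 4.66 to 3.50 in WT #1 and from 4.61 to 4.23 in WT #3, and up from 4.15 to 6.55 in mock ESCs and from 4.46 to 6.19, 4.39 to 5.93 and 5.0 to 6.46 in the mutant lines. Isl1 was among the 3 genes whose mock change most exceeded the mean of the mutant lines, by 0.94. It went from 4.38 to 6.54 in mock ESCs and from 4.43 to 5.52, 4.45 to 6.02 and 4.93 to 5.93 in the mutant lines. The WT lines had 5.57 and 5.36 before OHT and 5.50 and 5.38 afterwards, so that the mutant lines started below them and I53S #1 ended only level with WT #1. In all, 8 of the 94 (8.51%) had a change below 0 in both WT lines, against 25.7% of all genes.

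Imprinted genes, which are expressed from 1 parental allele, made up 5 of the 94 (Cdkn1c, Dlk1, Igf2, Ndn and Plagl1). The mock change exceeded the mean mutant change in all 5. Cdkn1c, an inhibitor of cyclin-dependent kinases, went from 8.18 to 10.17 in mock ESCs and from 6.82 to 8.69, 7.38 to 8.98 and 7.54 to 9.06 with the mutants. With WT Ring1B, where it stood at 8.22 and 7.89 before OHT and at 8.15 and 8.07 after it, the starting level was above that of every mutant line. Dlk1, a Notch-related ligand, had 4.21 and 6.71 in mock ESCs, 4.75 and 6.21, 4.55 and 6.80 and 5.33 and 6.51 in the mutant lines, and 5.0 and 4.36 and 4.56 and 4.95 with WT Ring1B. Its WT changes were -0.64 and 0.39, and its mean mutant change of 1.63 was 0.83 when dim probe sets were kept, either all or those above a signal of 3.95 instead of 5. The signal of Plagl1 is the mean of 3 probe sets that disagreed, with mean mutant changes from 0.22 to 1.97, so its value depends on which of them is read. Which parental allele gave the signal was not measured.

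Secreted signals were 6 of the 94 (Tac1, Grp, Rspo1, Penk, Bmp6 and Crispld2). Tac1 had the largest mean change of all in the mutant lines, 2.62 ± 0.69 (SD, n = 3 lines), a 6.14-fold difference. This value and its rank rest on leaving out a dim probe set, since with no filter the mean was 1.18. Tac1 went from 3.05 to 5.0 in I53S #1, from 3.04 to 6.37 in I53S #4, from 3.53 to 6.10 in I53A and from 3.09 to 5.05 in mock ESCs. In the WT lines it went from 3.42 to 2.79 and from 3.32 to 3.53. The starting levels of the 6 lines overlapped, and after OHT the WT lines stood apart. Tac1 passed the filter of 5 only through mock and mutant arrays after OHT, so this separation is not independent of the choice of genes. Grp (gastrin-releasing peptide) went from 3.39 to 5.32 in mock ESCs and from 4.21 to 5.49, 3.59 to 6.04 and 3.77 to 6.29 in the mutant lines, against 3.42 to 3.78 and 3.86 to 3.53 with WT Ring1B. Its change in I53S #1, 1.27, was well below the 2.46 of I53S #4, while I53S #4 and I53A, with 2.52, were close. Bmp6, a ligand of the BMP family, had changes of -0.66 and -0.46 with WT Ring1B.

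**Figure D2:**
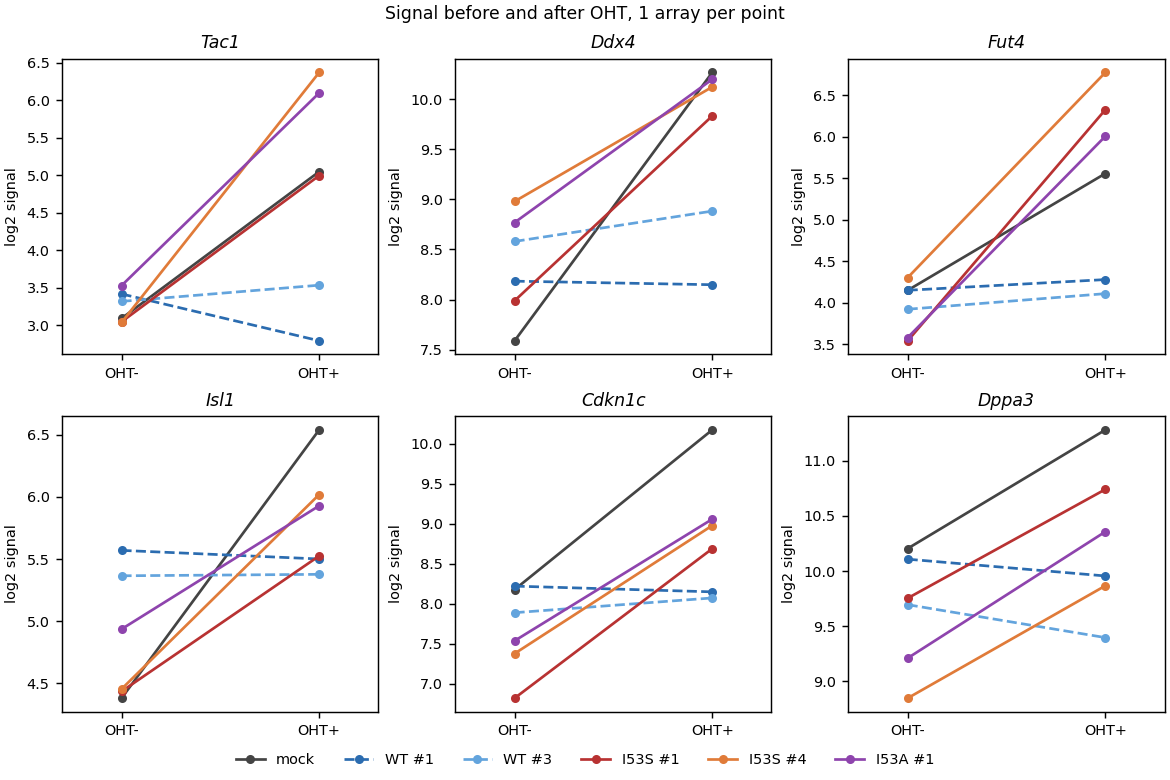
Log2 signal of 6 of the genes before and after OHT, with 1 point per array, 1 line of points per ESC line (WT lines dashed) and a separate vertical axis for each gene. Tac1 and Fut4 start together and separate after OHT, Ddx4 ends between 9.83 and 10.27 in the mock and mutant lines, Isl1 and Cdkn1c start lower in the mutant than in the WT lines, and Dppa3 overlaps at both times. Tac1 and Fut4 exceeded the filter of 5 only after OHT in mock or mutant lines.

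Receptors, surface proteins and signal transducers were 15 of the 94. They include the receptor tyrosine kinases Met and Ret, the clearance receptor for natriuretic peptides Npr3, the TGF-beta co-receptor Tgfbr3, the serotonin receptor Htr5b, the cadherin Pcdh19 and the MAP kinase phosphatase Dusp9. The other members are Adgrb2, Amn, Nrk, Plekhg4, Rasef, Scara3, Tesc and Ubash3b. The class median was 1.31 in mock ESCs, 1.24 in the mutant lines and 0.15 with WT Ring1B. Amn, the membrane anchor of the cubilin receptor and a gene of visceral endoderm, went from 5.81 to 7.88 in mock ESCs, from 5.75 to 8.03, 6.48 to 8.11 and 6.51 to 8.24 in the mutant lines, and from 6.87 to 6.75 and 6.55 to 6.33 with WT Ring1B. After OHT all 4 lines without a WT construct were above both WT lines.

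Rasef, a GTPase of the Rab family, differed most between the mutant lines. It went from 2.86 to 4.49 in I53S #1, from 2.96 to 4.19 in I53S #4 and from 2.60 to 5.25 in I53A, a range of 1.42 between the changes. The mock line had 2.96 and 4.66, and the WT lines 2.91 and 2.96 and 2.62 and 2.95. Only the I53A value after OHT exceeded the filter of 5 on dim probe sets, so the range is not independent of the choice of genes. Dusp9, which counteracts MAP kinases, went from 9.68 to 10.91 in mock ESCs and from 9.26 to 10.43, 9.72 to 10.62 and 9.47 to 10.40 in the mutant lines, with 9.87 to 10.08 and 9.86 to 10.10 with WT Ring1B.

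Enzymes, transporters and lipid-binding proteins were the largest class, with 19 of the 94 and a median of 1.45 in mock ESCs, 1.50 in the mutant lines and 0.11 with WT Ring1B. Fut4, the fucosyltransferase that can make the SSEA-1 carbohydrate of mouse ESCs, was the gene whose mutant change most exceeded its mock change, by 1.15. A dim probe set was left out here too, and with the filter at 3.95 or none the mean mutant change was 1.43 instead of 2.56. The signal went from 4.15 to 5.56 in mock ESCs, but from 3.54 to 6.33, 4.30 to 6.77 and 3.58 to 6.01 in the mutant lines, against 4.15 to 4.28 and 3.92 to 4.11 with WT Ring1B. Every mutant line ended above the mock line.

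Bhmt2, which passes a methyl group to homocysteine, changed alike in mock ESCs, from 3.11 to 5.62, and in the mutant lines, from 3.03 to 5.22, 3.62 to 6.11 and 3.49 to 6.23, with 3.10 to 3.33 and 3.22 to 3.39 with WT Ring1B. Tlcd4, a membrane protein with a TLC domain, went from 3.02 to 5.05 in mock ESCs, from 2.66 to 4.79, 3.15 to 5.40 and 3.65 to 5.87 in the mutant lines, and from 3.04 to 3.23 and 3.21 to 3.20 with WT Ring1B. Its mutant changes of 2.13, 2.24 and 2.22 were nearly equal, but with no filter on dim probe sets their mean of 2.20 was 0.69. Galnt12, which starts O-linked glycans, went from 5.65 to 8.30 in mock ESCs, from 5.77 to 8.19, 6.89 to 8.59 and 6.98 to 8.58 in the mutant lines, and from 6.62 to 6.98 and 7.07 to 7.04 with WT Ring1B. As with Ddx4, the lines with the largest changes, mock and I53S #1, were those with the lowest start.

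Fabp5, a carrier of fatty acids and retinoic acid, had a high signal in every line, from 9.75 to 11.80 in mock ESCs, from 10.04 to 11.49, 10.30 to 11.67 and 10.36 to 11.64 in the mutant lines, and from 9.99 to 10.13 and 10.20 to 10.29 with WT Ring1B. A second carrier of retinoic acid, Crabp1, had changes of 2.36 in mock ESCs and 1.85, 1.88 and 1.64 in the mutant lines, against 0.21 and 0.14 with WT Ring1B. The other members of the class are Aspa, Ctsc, Gatm, Gdpd1, Hdc (which makes histamine), Lpl (lipoprotein lipase), Mboat1, Sgpp2, Slc25a24, Slc30a2, Slc7a8, Tmem163 and Tmem30b, with mean mutant changes between 0.97 for Slc25a24 and 1.61 for Aspa.

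Genes of the cytoskeleton, muscle, matrix and cell junctions were 7 of the 94 (Klhl40, Shtn1, Pdlim4, Fbn2, Myh3, Popdc3 and Dsp), with a median of 1.50 in mock ESCs, 1.34 in the mutant lines and 0.14 with WT Ring1B. Klhl40, a stabiliser of thin filaments in muscle, went from 4.21 to 6.26 in mock ESCs, from 4.50 to 6.02, 4.75 to 6.31 and 4.26 to 6.42 in the mutant lines, and from 4.74 to 5.01 and 4.83 to 4.84 with WT Ring1B. Shtn1, a protein of growing axons, went from 5.37 to 7.19 in mock ESCs, from 5.41 to 7.08, 5.97 to 7.64 and 6.27 to 7.58 in the mutant lines, and from 5.37 to 5.30 and 5.92 to 5.99 with WT Ring1B. In both genes the OHT+ values of the WT lines lie below all others.

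The remaining 12 genes have other or little-studied functions (1700016K19Rik, Calhm6, Ccdc158, Fam102b, Fam149a, Fam217b, Gm715, Hdgfl3, Lonrf3, Phc2, Rnf227 and Tmem54), with a median of 1.38 in mock ESCs, 1.26 in the mutant lines and 0.11 with WT Ring1B. Tmem54 had the lowest start in the mutant relative to the WT lines of all 94 genes, by -0.98. It went from 4.21 to 6.34, 4.89 to 6.63 and 4.50 to 6.76 in the mutant lines, from 5.50 to 6.84 in mock ESCs, and from 5.87 to 5.75 and 5.16 to 5.40 with WT Ring1B. Rnf227, a RING finger gene, likewise started lower in the mutant lines, at 4.58, 5.18 and 5.32 against 5.49 and 6.31 with WT Ring1B, and ended higher, at 6.84, 6.70 and 6.99 against 5.81 and 5.98. Its mock line went from 5.04 to 7.20. Phc2, itself a subunit of PRC1, went from 7.56 to 8.81 in mock ESCs and from 7.39 to 8.64, 7.93 to 8.78 and 7.56 to 8.57 in the mutant lines, with 7.42 to 7.76 and 7.43 to 7.82 with WT Ring1B, the last with a change of 0.39 just under the limit.

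The size of the change in mock ESCs was compared with that in the mutant lines, a difference that the rule does not set. The mock change was above the mean mutant change in 73 of the 94 genes and below it in 21, a share of 22.3% against 49.6% over all genes measured. The difference had a median of 0.19 and ran from -1.15 for Fut4 to 1.21 for Ddx4. In 44 of the 94 genes the mock line was above every mutant line, 46.8% against 28% over all genes, in 10 it was below every mutant line, and in 40 it lay within them. The rule asks for a larger rise in mock ESCs, at least 1 against 0.8, which favours this order. The order also depended on the scaling. On the values as deposited, where the median of all genes was itself -0.25 for this difference, the mock change was the larger in 44 of the 94, with a median difference of -0.02, and on arrays centred on their medians in 75, with 0.22. Relative to the median of all genes the difference was 0.19, 0.23 and 0.23 under the 3 scalings. There is 1 mock line, and the genes share its 2 arrays. By class, the mock change was the larger in 15 of 17 germ cell genes and in 2 of 6 secreted signals.

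**Figure D3:**
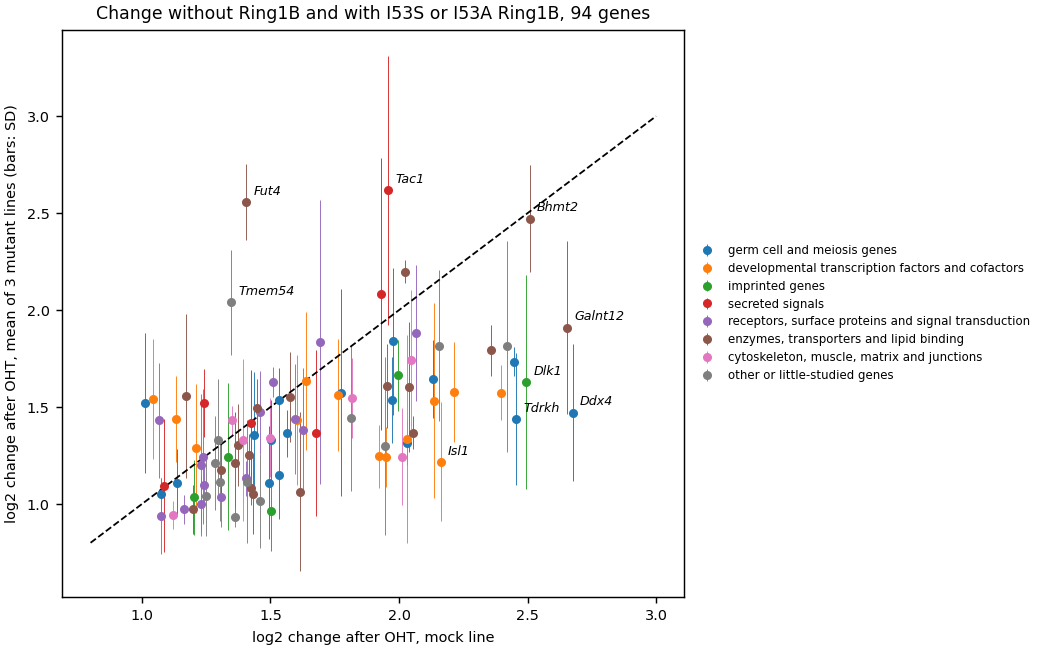
OHT change (log2) in mock ESCs against the mean of the 3 mutant lines for each of the 94 genes, coloured by class, with vertical bars for the SD of the mutant lines and a dashed line where both are equal. Most points lie under the dashed line (73 of 94 after quantile normalisation, 44 of 94 as deposited), with Ddx4, Tdrkh and Isl1 farthest below it and Fut4, Tmem54 and Tac1 farthest above.

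The mutant lines were set against each other next. I53S #1 had the highest change of the 3 in 43 genes, I53S #4 in 27 and I53A in 24. The range over the 3 lines had a median of 0.45 and went from 0.10 for Calhm6 to 1.42 for Rasef. Rasef exceeded the filter of 5 on dim probe sets only in I53A after OHT (5.25). Its differences between the mutant lines, here and below, are therefore not independent of the choice of genes. For I53S minus I53A the fit over all genes called none of the 13662 genes (limma, Benjamini-Hochberg adjusted p under 0.05), and 741 or 5.42% had an unadjusted p under 0.05. Of the 94, 8 or 8.51% had one. These were Rasef (-1.22), Klhl40 (-0.62), Tdrkh (-0.57) and Htr5b (-0.54), with the larger value in I53A, and Irf8 (0.49), Scara3 (0.61), Lonrf3 (0.62) and Hand2 (0.80), with the larger value in the I53S lines. The smallest adjusted p among the 94 was 0.892, for Rasef, whose 95% interval ran from -1.89 to -0.54.

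For 86 of the 94 genes the 95% interval of the difference included 0, and the median distance from the difference to either end of it was 0.63. I53A is 1 line, so the fit takes its spread from the other lines, and these p-values and intervals assume that it varies as they do. The median difference over the 94 genes was 0.07, and 56 of them lay above 0. These genes share the same arrays and are not separate readings. The rule asks for at least 0.8 in every mutant line, so genes that missed it in I53A, such as Dab2 with 0.14, were left out. Similar changes in I53S and I53A lines are thus partly built into the 94. For Tlcd4 the interval ran from -0.54 to 0.46 and for Sycp2 from -0.60 to 0.36, whereas for Tac1, where the I53S lines themselves differed, it ran from -1.67 to 1.81.

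To read the genes in a line whose changes had not chosen them, each line was left out in turn. The remaining conditions were applied to the other 5. The filter of 5 on dim probe sets still used all 12 arrays, so the line left out was not fully independent of the choice. Rasef passed that filter only in I53A after OHT (5.25), and Slc7a8 only in I53S #4 after OHT (5.28). How far this raised the shares below was not tested. Without I53S #1 the conditions chose 107 genes, of which 87.9% had a change of at least 0.8 in I53S #1, against 6.34% of all genes. The corresponding shares were 83.2% of 113 genes in I53S #4, against 5.23%, and 77% of 122 genes in I53A, against 5.97%. Without the mock line 139 genes were chosen, of which 67.6% had a change of at least 1 in it, against 4.55%. The genes chosen on the other lines therefore passed the limit in the line left out far more often than genes at large, with medians of 1.34, 1.20, 1.16 and 1.31, although single genes did not, such as Bmp2, at -0.94 in I53S #4, and Slc9b2, at -0.33 in mock ESCs.

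The WT condition held less often when it was read in this way. Without WT #1 the other conditions chose 134 genes, of which 70.1% stayed below 0.4 in WT #1, against 91% of all genes. Without WT #3 they chose 136, of which 69.1% stayed below 0.4 in WT #3, against 91.8%. The median change of these genes was 0.22 in WT #1 and 0.26 in WT #3, above the medians of all genes, which were 0.01 in both. The mock and mutant conditions together were met by 228 genes (1.67% of all), and 105 or 46.1% of these stayed below 0.4 in both WT lines, against 84.9% of all genes. One or both WT lines were at or above 0.4 for the other 123, and both were for 32. Genes that went up in the mock and mutant lines thus passed 0.4 in a WT line more often than genes at large, and their median WT change was 0.26.

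**Figure D4:**
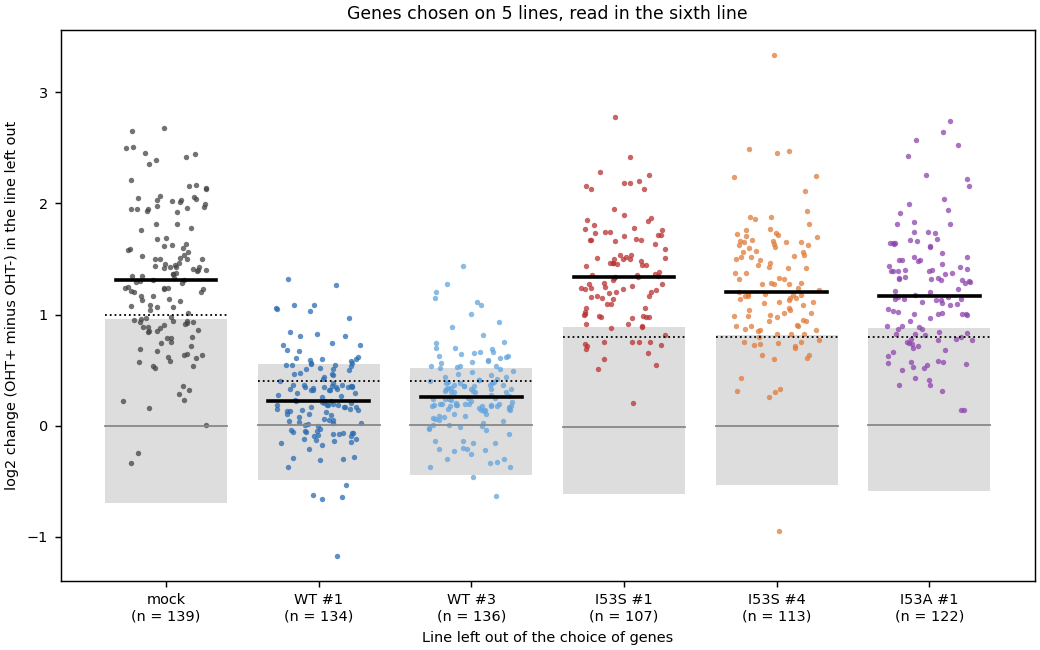
OHT change (log2) in each line of genes chosen by their changes in the other 5 lines, with 1 point per gene, black bars at the median, dotted lines at the limit for that line, grey boxes from the 5th to the 95th percentile of all genes and a grey line at their median. In the mock and mutant lines most points lie above the dotted line, and in the WT lines 70.1% and 69.1% lie below it with medians of 0.22 and 0.26.

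Before OHT, when the floxed Ring1B was still present in every line, the 94 genes were, after quantile normalisation, slightly lower in the mutant than in the WT lines, with a median difference of -0.13 against 0.01 over all genes. On the values as deposited this difference was 0.21 against 0.28 over all genes, and on centred arrays -0.23 against -0.17, so that relative to all genes it was -0.06 under both. In 16 of the 94, or 17%, every mutant line lay below both WT lines, against 10.2% of all genes, and in 5 every mutant line lay above, against 10%. A change is the later level minus this one, so that a low start favours a large change and the start is not independent of the rule. After OHT every mutant line was above both WT lines in 90 of the 94, against 18.9% of all genes, which the rule all but requires.

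Most of the genes were read by 1 probe set. The 94 genes had 131 probe sets in use, 66 genes with 1 and 28 with several. In 22 of these 28 the mean mutant change was at least 0.8 in every probe set. That mean was below 0 for no probe set of the 28. In single lines a probe set of Plagl1 was below 0 (-0.57 in mock ESCs, -0.21 in I53S #4 and -0.26 in I53A). So was a probe set of Ret and of Hdc in I53S #1 (-0.21 and -0.17), and of Ebf3 in I53S #4 (-0.03). In 11 of the 28 a probe set reached the limit of 0.4 in a WT line, for Phc2 and Plagl1 in both. These 11 were Crispld2, Dsp, Ebf3, Hdc, Irf8, Ndn, Pcdh19, Phc2, Plagl1, Rnf227 and Ubash3b. A probe set of Ets1, Fam102b, Gdpd1, Hdgfl3, Isl1, Nrk, Ret and Slc25a24 missed the mock limit or the limit in a mutant line. All of these genes meet the rule only as averages. For 18 genes a further probe set was left out because its signal never exceeded 5. Signals of different probe sets have different scales, so the levels of one gene were not ranked against those of another. By position, 7 of the 94 lay on the X chromosome (Lonrf3, Cited1, Gm715, Nrk, Rhox6, Pcdh19 and Dusp9), 7.45% against 3.16% of all genes measured.

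The other genes of these functions, from lists written for this description, were counted in the same fit against 7.63% called higher and 3.13% called lower over all genes. Among 55 measured germline and meiosis genes, 31 were called higher in the mutant lines and 1, Tex14, lower, and 13 belong to the 94 (Cpeb1, Ddx4, Dmrtb1, Figla, Mael, Mei1, Mov10l1, Piwil2, Slc25a31, Stk31, Syce1, Sycp2 and Tdrkh). Among 103 developmental transcription factors, 41 were called higher and 2, Olig1 and Otx2, lower, and 9 belong to the 94 (Alx1, Barx1, Cdx1, Dmrt1, Ebf3, Hand2, Isl1, Shox2 and Tlx1). The median change of the germline list was 0.73 in the mutant lines, 1.01 in mock ESCs and 0.15 with WT Ring1B, and that of the transcription factors 0.51, 0.73 and 0.12, where the median of all genes in the mutant lines was -0.01. The germline list thus had 13 of 55 genes within the E3-dependent set and the transcription factor list 9 of 103, where the set holds 94 of 13662 genes measured. The lists were written with earlier results of these data known, so these counts are a description only. The prefixes left out also bear on the second list.

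The remaining lists of gene functions held between 0 and 5 of the 94 each, where the set holds 94 of 13662 genes measured. Of 74 secreted signals 19 were called higher and 6 lower, with 5 of the 94 (Bmp6, Igf2, Penk, Rspo1 and Tac1), and of 73 receptors 17 were called higher and 0 lower, with 2. Of 64 metabolic genes 16 were called higher and 4 lower, with 4. Of 37 muscle and cytoskeleton genes 10 were called higher and 1, Ttn, lower, and of 23 antigen presentation genes 6 were called higher and 0 lower, with 1 of the 94 in each. Of 56 neuronal genes 4 were called higher, and none belongs to the 94. Among 36 Polycomb genes Bcor, Bmi1, Cbx8 and Phc2 were called higher and Phc1 lower, and Phc2 alone belongs to the 94, which it does only after quantile normalisation and not on the values as deposited or on centred arrays.

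The motif of the promoters shown above was counted in RefSeq windows of 300 bases, 250 before and 50 after the start, which were matched for 70 of the 94 genes and for 10986 of all genes. CACGTG, which reads the same on both strands, was found in 16 of the 70 windows (22.9%), against 10.1% of all. The genes were Amn, Bmp6, Cpeb1, Crispld2, Ddx4, Lonrf3, Mael, Met, Mov10l1, Phc2, Plagl1, Sgpp2, Slc25a31, Stk31, Tac1 and Tlcd4. Germ cell genes were 6 of these (46.2% of the 13 with a window), secreted signals were 3 of 4, and of the 10 transcription factor genes with a window 0 held it. Of the listed germline genes that are not among the 94, 12 of 38 (31.6%) held it too, so the palindrome was frequent in germline genes inside and outside the set.

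CpG-rich windows hold CACGTG, with its central CpG, more often. Among windows with at least 10 CpG the share was 27.1% of the 59 that belong to the 94 genes and 11.4% of 8682 over all genes. The number of CpG per window had a median of 22 for the 94 genes and 20 for all. TCCCGC, searched on both strands as TCCCGC or GCGGGA, which can share a base at an end with CACGTG, was found in 34.3% of the windows of the 94 and in 34.7% of all. These are counts of letters in a fixed window, with no test, and say nothing of binding.

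**Figure D5:**
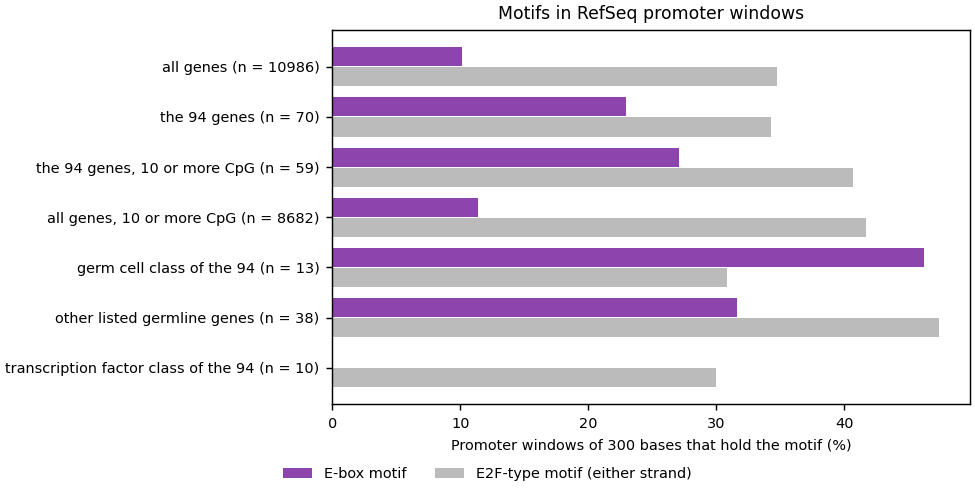
Share (%) of RefSeq promoter windows of 300 bases that hold the E-box palindrome (purple) or the E2F-type letters (grey), for all genes, the 94 genes and subsets of both, with the number of windows in each set in brackets. The E-box was found in 22.9% of windows of the 94 genes against 10.1% of all, and the E2F-type letters in 34.3% against 34.7%.

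The ESC label was checked on 7 marker genes (Pou5f1, Sox2, Nanog, Zfp42, Dppa5a, Esrrb and Klf4), whose mean log2 signal was between 11.8 and 12.1 on all arrays. Their median change was -0.03 in mock ESCs, -0.12, -0.23 and -0.20 in I53S #1, I53S #4 and I53A, and 0.04 and 0.07 with WT Ring1B. This median covers opposite moves, with 3 of the 7 markers above 0 in their change in mock ESCs. There Klf4 went from 10.7 to 11.7 and Sox2 from 12.1 to 11.5. Klf4 was higher after OHT in every line, those with WT Ring1B included. Median changes of markers of other cells were above 0 in the mock and mutant lines. The median change of 6 measured trophectoderm markers was 0.91 in mock ESCs, 0.74, 0.87 and 0.59 in I53S #1, I53S #4 and I53A, and -0.10 and 0.05 with WT Ring1B. For 8 primitive endoderm markers it was 1.25, then 0.47, 0.21 and 0.40, and -0.03 and 0.10. For 7 of 10 fibroblast markers it was 0.47, then 0.41, 0.26 and 0.19, and -0.03 and 0.01, with Lum, Fbn1 and Fap not above the filter. The mean log2 level of these fibroblast markers was 6.39 to 6.99 before OHT, and afterwards 6.98 to 7.47 in the mock and I53S lines, 6.68 in I53A, where it had been 6.73 and 4 of the 7 were above 0 in their change, and 6.22 and 6.65 with WT Ring1B. That of the trophectoderm markers (all but Elf5) was 5.35 to 6.07 before OHT, and 6.26 to 6.85 and then 6.03 and 5.72 afterwards. That of the primitive endoderm markers was 5.70 to 6.96 before OHT, and 6.67 to 7.24 and then 6.0 and 6.63 afterwards. In the fit over all genes the wider lists had 2 of 23 fibroblast, 4 of 17 primitive endoderm, 6 of 13 trophectoderm, 2 of 26 pluripotency and 1 of 11 housekeeping genes called higher in the mutant lines, and 3 pluripotency genes called lower. Amn of the endoderm list and Dppa3 of the pluripotency list belong to the 94. The part of other cell types in the changes of the 94 genes was not tested. Rnf2, the gene of Ring1B, had changes between -0.29 and 0.20, and since its probe sets could not be placed relative to the deleted part, it does not check the deletion.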

How the data were processed

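RNA of 6 ESC lines was measured before and after OHT on 12 Affymetrix mouse genome arrays. For each array the authors deposited a log2 signal per probe set. The labels name RMA in Affymetrix Expression Console, without versions, while the supplementary methods describe MAS5 signals and quantile normalization. The deposited arrays did not share a distribution (medians from 4.66 to 5.69), so they were quantile-normalised here. Of 45101 probe sets, 34945 had 1 symbol, 932 several and 9160 none, and 64 were controls. Probe sets with 1 symbol and a highest signal above 5 (24065) were averaged per gene, which gave 13662 genes, of which 13603 were found in the gene table.

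The 12 arrays were fitted with limma 3.58.1 in R 4.3.3 (lmFit and eBayes, two-sided), which left 3 residual degrees of freedom beside a prior of 2.71. I53S minus I53A came from a fit with separate effects of both, with 2 residual and 2.74 prior degrees of freedom. Each line was a block, with Benjamini-Hochberg adjustment over all genes. The arrays of a line are paired because they come from the same cells: deviations from the class mean correlated at 0.35 in WT and at 0.45 to 0.51 in mutant lines. All 12 arrays held different values. Precision is limited by the number of arrays. The 94 genes, the classes and the gene lists were chosen with earlier results of these data known. Genes named with all values were the 10 with the largest mean mutant change, the top 2 of each class, the 3 at either end of mock minus mutant change and of signal before OHT, and the 3 on either side of a limit; others were named as members of a class or list or as examples chosen after their values were seen. Promoter sequences are from RefSeq, GRCm38.p6, at the first start listed for a gene, and were not matched for 24 of the 94. Alternatives were the values as deposited, arrays centred on their medians, other filters, the brightest probe set, no block, a trended and robust prior, other limits, and each line left out.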

Additional observations from a re-analysis of the deposited data

Results flagged for a closer look

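In 8 of the 94 genes, or 8.51%, both WT lines had an OHT change below 0 while all 3 mutant lines had one above 0. Over all genes 25.7% had both WT lines below 0. The mutant minus WT difference of the OHT change was 2.35 for Shox2, 2.05 for Amn, 1.96 for Cpeb1, 1.92 for Bmp6, 1.71 for Figla, 1.57 for Tmem163, 1.27 for Dppa3 and 1.24 for Nrk. The rule chose the genes on these contrasts, and the difference was therefore not tested on independent data. The WT changes were -1.17 and -0.37 for Shox2, -0.66 and -0.46 for Bmp6, -0.37 and -0.26 for Cpeb1 and -0.15 and -0.30 for Dppa3, while for Tmem163 they were -0.53 and -0.01 and for Nrk -0.08 and -0.14. No gene was called in the WT lines by limma (7.93% had an unadjusted p under 0.05), so a value below 0 there is a sign and not a called fall.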

How the results depend on the processing

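The set of 94 genes depended on the scaling and on the limits. On the values as deposited the conditions gave 56 genes, 54 of them shared, with stricter limits (1.2, 1 and 0.3) 34, and with looser limits (0.8, 0.6 and 0.5) 211. Centred arrays gave 99 (88 shared), the brightest probe set 100 (83 shared), a filter at 3.95 84 and no filter 77, and 52 genes were kept under both other scalings. Adgrb2, Crispld2, Phc2 and Slc30a2 were kept under neither. Genes described above that were not kept as deposited include Barx1, Dppa3, Dusp9, Figla, Galnt12, Hand2, Igf2 and Rnf227. With a WT or mutant line left out and its condition dropped, between 107 and 136 genes were chosen, and without the mock line 139. As deposited, the median of all genes shifted by -0.36 in the mock line and by -0.16 in I53S #4, and calls split into 709 higher and 833 lower in the mutant lines, against 1043 and 427, and into 295 and 1831 in the mock line, against 373 and 152. The number of genes called in the mutant lines was 1470, with no replicate block, so without pairing the arrays of a line, it was 683, with a trended and robust prior 2641, and with a line left out 424 to 1119. In the mock line it was 525, against 2126 as deposited, 275 with the filter at 3.95, 258 with no filter, 111 with no replicate block, 1674 with the trended prior and 67 to 241 with a line left out. For mutant minus WT it was 24, against 0 as deposited and with either other filter, 46 on centred arrays, 40 with the brightest probe set, 6 with no replicate block, 398 with the trended prior and 0 to 0 with a line left out. The WT lines and I53S minus I53A had 0 calls under all alternatives run, and without the I53A line the latter could not be fitted. With a WT, I53S or I53A line left out, a lone remaining line was assumed to vary like the others. The causes were not tested. Of 232 values of 29 named genes under the other settings, 217 stayed within 1 SD of the mutant lines, 15 moved and 0 changed sign. The lowest was 0.43 for Hand2 with no filter (0.61 with the filter at 3.95, against 1.34). Leaving out 1 of the 3 mutant lines cannot move their mean by 1 SD, so the values under those settings stayed by arithmetic. The rule also holds each mutant change of a member at 0.8 or more, which made a change of sign unlikely. Both counts are thus in part fixed in advance. Of the genes just outside the limits, Traf5 had 0.61 with no filter and Prkg2 0.65 with the brightest probe set.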

Other observations

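The genes with the smallest spread between the mutant lines were Calhm6, with a mean change of 0.93 ± 0.05, and Tlcd4, with 2.20 ± 0.06 (SD, n = 3 lines), both chosen after their values were seen. With no filter on dim probe sets the value of Tlcd4 was 0.69. Fabp5 and Crabp1 were among the 44 of the 94 genes with a mock change above every mutant line. Their mock changes were 2.06 and 2.36, against mutant means of 1.37 ± 0.09 and 1.79 ± 0.13. The limits of the rule favour this order, and over the 94 genes the order of mock and mutant changes depended on the scaling.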
